A study of Sus scrofa with 18 samples.

Results

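Transcripts of 8 genes of the response to low oxygen and of glucose breakdown were followed in transplanted pig kidneys. They were HIF1A, the oxygen-regulated subunit of the transcription factor HIF, the glucose transporter gene SLC2A3, the glycolytic enzyme genes PFKP and ENO1, the lactate genes LDHA and SLC16A3, and the HIF targets VEGFA and ERO1A. Members were all probe sets (groups of short probes that read 1 transcript) whose single gene symbol in the platform annotation was 1 of these genes. This gave 14 of 23999 probe sets on an Affymetrix pig array, 4 each for HIF1A and VEGFA and 1 for each other gene, and all 8 genes had at least 1. Where a gene had several, the probe set of highest mean level stood for the gene, and the others are given beside it.

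The 18 arrays each held RNA of 1 pig kidney, in a study of injury on return of blood flow to a transplanted organ and of carbon monoxide (CO). The groups were transplanted kidneys with CO at 24 h (n = 4), transplanted untreated kidneys at 24 h (n = 4), transplanted kidneys with CO at 4 h (n = 4), transplanted untreated kidneys at 4 h (n = 4) and naive kidneys that were not transplanted (n = 2). Donors 5 to 8 gave the 24 h kidneys and donors 1 to 4 the 4 h kidneys, with 1 CO and 1 untreated kidney for each donor number, so the times compare different donors. The labels do not give the CO dose, whether donor, graft or recipient received it, or the strain, age and sex of the animals. No label names the animals of the naive kidneys, and numbers in the file names of the naive arrays recur in those of the donor 4 arrays.

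HIF is made of an oxygen-regulated subunit and a stable partner. In normal oxygen, prolyl hydroxylases mark the regulated subunit for destruction, and when oxygen falls the protein accumulates and switches on genes for glucose uptake, glycolysis, vessel growth and red cell formation. HIF activity is set largely at the level of this protein, which arrays do not measure. The proximal tubule, the main mass of the kidney cortex, makes glucose and lives mostly on fatty acids and lactate. Some segments further down the nephron and many blood cells use glycolysis more.

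All values are log2 levels, so that a difference of 1 is a 2-fold change, and errors after ± are SD for a group and SE for a difference in limma, the linear model fitted over all probe sets and all 18 arrays. A call is an adjusted p under 0.05 (Benjamini-Hochberg over all 23999 probe sets). Array medians lay between 3.75 and 3.94, and background, the 95th percentile of 17 tag control probe sets, was 1.61. The kidney label held, with all 7 measured proximal tubule markers and all 3 measured distal nephron markers above background on 18 of 18 arrays. Beyond the donor number the labels do not say how far the kidneys of a group are separate animals, so p-values measure the spread between these arrays. All comparisons with naive kidneys share the same 2 naive arrays. In bulk tissue, fewer cells of a type and less RNA per cell cannot be told apart.

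At 24 h the called members were all higher than in naive kidneys, with CO and without. HIF1A, SLC2A3, LDHA and ENO1 rose in the CO kidneys, 4 of 8 genes, where 11.7% of all probe sets passed, 5.75% upward and 5.93% downward. In untreated kidneys the same 4 genes and PFKP rose, 5 of 8, where 14.6% of all probe sets passed, 6.79% upward and 7.77% downward. At 4 h HIF1A rose and SLC16A3 fell in the CO kidneys, 2 of 8, where 13.6% of probe sets passed, 6.84% upward and 6.72% downward. In the untreated kidneys 0 of 8 passed at 4 h, where 1.5% of all probe sets passed. At an unadjusted p under 0.05, 6 of 8 genes passed in CO 24 h (25.9% of all probe sets), 5 in untreated 24 h (28.1%), 5 in CO 4 h (28.4%) and 2 in untreated 4 h kidneys (20.7%). The 3' minus 5' difference of the GAPDH control probe sets, a sign of RNA quality, was 1.03 to 1.33 in naive kidneys. It was 1.14 to 2.28 in CO and 1.29 to 1.91 in untreated kidneys at 24 h. At 4 h it was 1.04 to 1.54 in CO and 0.911 to 1.54 in untreated kidneys. For the actin control probe sets it was 1.22 to 2.79 in CO and 1.20 to 2.27 in untreated kidneys at 24 h. The actin values were 1.32 to 1.88 in CO and 1.54 to 2.06 in untreated kidneys at 4 h, and 1.68 to 1.91 in naive kidneys. The part of RNA quality in these results was not tested. The median difference of the 8 genes from naive was 0.93 in CO and 0.99 in untreated kidneys at 24 h. It was 0.78 in CO and 0.47 in untreated kidneys at 4 h. Over all probe sets the medians were -0.02, 0.01, -0.01 and -0.03 in the same order. The 8 genes were chosen with earlier results of these data known, so these contrasts are no test of the group. Each gene was read by its brightest probe set, while the shares and medians over all probe sets include dim ones.

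**Figure D1:**
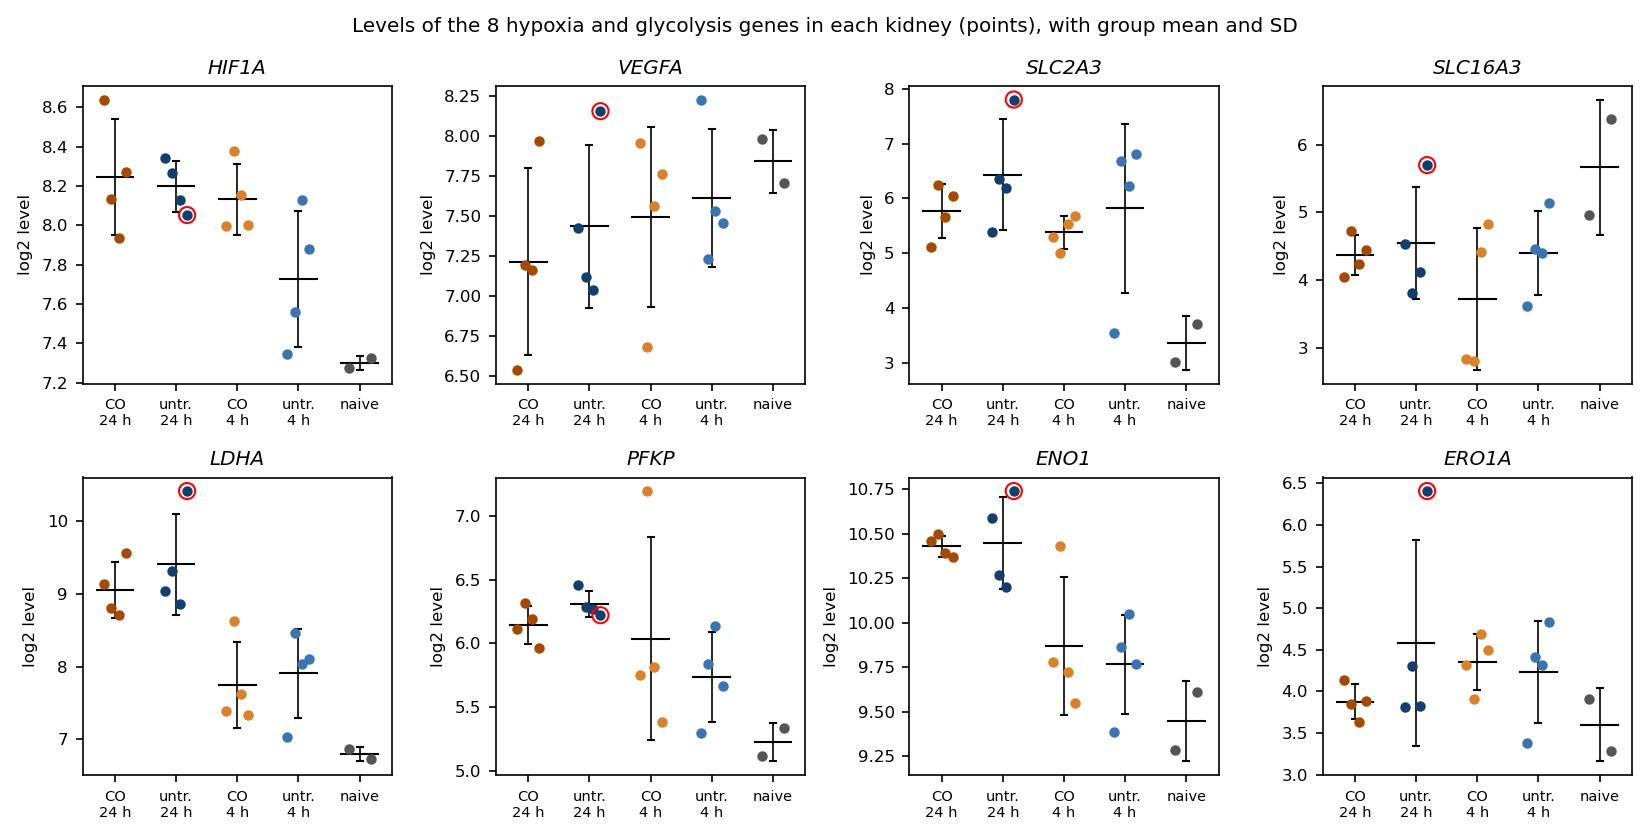
Log2 level of each of the 8 genes (y axis, 1 panel per gene, axes not starting at 0) in the CO 24 h, untreated 24 h, CO 4 h, untreated 4 h and naive kidneys (x axis). Points are kidneys, lines and bars are the group mean and SD, and the red ring marks the untreated 24 h kidney of donor 8, which reads highest of all 18 arrays for SLC2A3, LDHA, ENO1 and ERO1A.

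HIF1A, whose product is the regulated subunit of HIF, read 8.64, 8.14, 7.94 and 8.27 in the CO kidneys of donors 5 to 8 at 24 h and 8.34, 8.27, 8.13 and 8.05 in their untreated kidneys. At 4 h it read 7.99, 8.38, 8.16 and 8.00 in the CO kidneys of donors 1 to 4 and 7.34, 7.56, 8.13 and 7.88 in their untreated kidneys, and the naive kidneys read 7.28 and 7.33. Every transplanted kidney stood above both naive kidneys, most narrowly the untreated 4 h kidney of donor 1. Groups that do not overlap upward were found for 18.7% of all probe sets in CO and 19.8% in untreated kidneys at 24 h, and for 17.6% in CO and 11.5% in untreated kidneys at 4 h. HIF1A rose 1.92-fold in CO kidneys (0.94 ± 0.21, adjusted p = 0.0097) and 1.86-fold in untreated kidneys at 24 h (0.90 ± 0.21, adjusted p = 0.0102). It also rose 1.78-fold in CO kidneys at 4 h (0.83 ± 0.21, adjusted p = 0.0198), while the untreated 4 h difference was 0.43 ± 0.21 (adjusted p = 0.269). From highest to lowest mean, the order was CO 24 h (8.25 ± 0.30), untreated 24 h (8.20 ± 0.13), CO 4 h (8.13 ± 0.18), untreated 4 h (7.73 ± 0.35) and naive (7.30 ± 0.04). Neighbours among the first 3 groups differed by less than their SD. Leaving out naive kidney 1 or 2 ended these HIF1A calls, with adjusted p of 0.109 and 0.0712 for CO 24 h, 0.102 and 0.0715 for untreated 24 h, and 0.133 and 0.132 for CO 4 h, and sizes of 0.75 to 1.05 over all arrays left out.

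The second HIF1A probe set had a dimmer signal and its highest mean at 4 h with CO. It averaged 3.94 ± 0.39 in CO and 4.27 ± 0.42 in untreated kidneys at 24 h, 4.74 ± 0.32 in CO and 4.30 ± 0.54 in untreated kidneys at 4 h, and 3.97 and 2.45 in the naive kidneys. In CO kidneys at 4 h it rose 2.88-fold (1.53 ± 0.40, adjusted p = 0.0222), and it passed in no other comparison. HIF1A probe sets 3 and 4 had means under background and were above it on 2 and 1 of 18 arrays, so no difference was read from them. One of the 2 arrays on which probe set 3 was above background was the untreated 24 h kidney of donor 8, at 2.92, where the next highest array read 1.63.

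**Figure D2:**
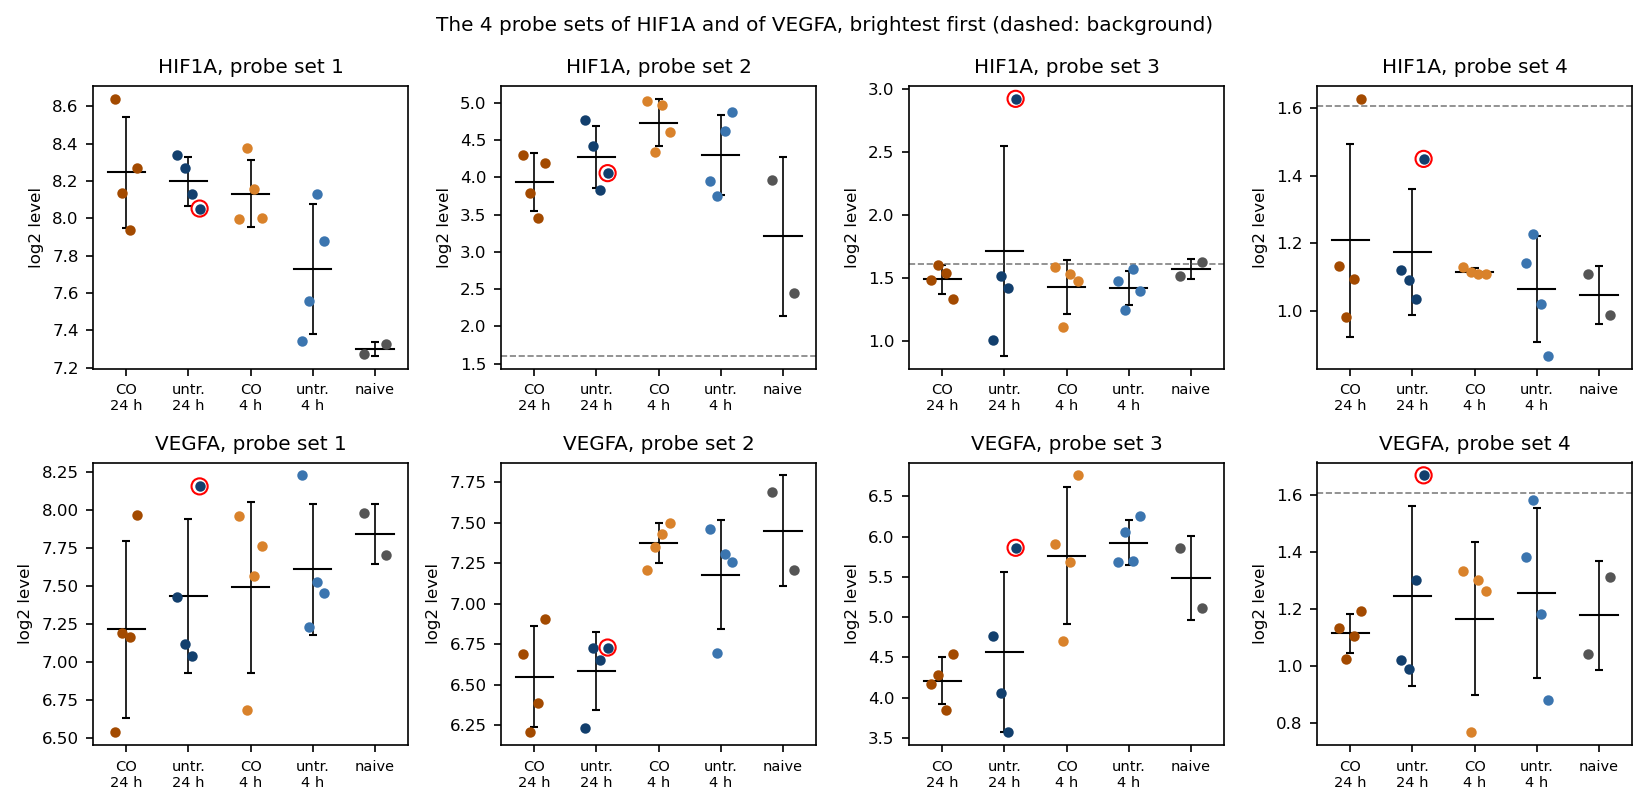
Log2 level (y axis, not starting at 0) of the 4 HIF1A probe sets (top) and the 4 VEGFA probe sets (bottom), brightest at left, in the 5 groups (x axis). Points are kidneys, lines and bars are mean and SD, the dashed line is background (1.61) and the red ring is the untreated 24 h kidney of donor 8. VEGFA probe set 2 is low at 24 h, while probe sets 1 and 3 overlap the naive kidneys in the untreated 24 h group.

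SLC2A3, a glucose transporter of high affinity that is abundant in neurons and white blood cells, had the largest rises of the 8 genes. At 24 h it read 5.12, 6.25, 5.66 and 6.04 in the CO kidneys of donors 5 to 8 and 5.39, 6.35, 6.20 and 7.81 in their untreated kidneys. At 4 h it read 5.29, 5.01, 5.54 and 5.68 in the CO kidneys of donors 1 to 4 and 3.54, 6.68, 6.24 and 6.81 in their untreated kidneys, with 3.01 and 3.70 in naive kidneys. The untreated 4 h kidney of donor 1 lay between the naive kidneys, and all other transplanted kidneys lay above them. Of all probe sets, 18.7% in CO 24 h, 19.8% in untreated 24 h and 17.6% in CO 4 h kidneys lay wholly above naive. The rise was 5.32-fold in CO kidneys (2.41 ± 0.73, adjusted p = 0.041) and 8.45-fold in untreated kidneys at 24 h (3.08 ± 0.73, adjusted p = 0.01). At 4 h the differences were 2.02 ± 0.73 with CO (adjusted p = 0.0747) and 2.46 ± 0.73 without (adjusted p = 0.0782), and neither passed. Without the untreated 4 h kidney of donor 1 both passed, at adjusted p of 0.00841 with CO and 0.000663 untreated. Without naive kidney 1 or 2 the 24 h calls ended, at 0.301 and 0.123 with CO and 0.13 and 0.0522 untreated. The CO 24 h call held when 9 of 18 arrays were left out in turn, with an adjusted p as low as 0.00334. It also ended without the CO 4 h kidney of donor 1 or 3, the untreated 24 h kidney of donor 6 or 7, or the CO 24 h kidney of donor 6, 7 or 8, among them 0.051, 0.0525 and 0.0675 for CO donors 1, 3 and 8.

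PFKP encodes the platelet form of phosphofructokinase, the enzyme of the committed step of glycolysis. It read 6.11, 6.32, 6.19 and 5.96 in CO kidneys of donors 5 to 8 at 24 h and 6.46, 6.28, 6.27 and 6.22 in their untreated kidneys. The 4 h levels were 5.75, 7.20, 5.81 and 5.39 in CO kidneys of donors 1 to 4 and 5.29, 5.84, 6.14 and 5.66 in their untreated kidneys, and naive kidneys read 5.12 and 5.33. The 24 h groups were tight and stood above the naive kidneys, as did 18.7% of all probe sets with CO and 19.8% untreated. The CO 4 h kidney of donor 2 was the highest of all 18. PFKP rose 2.12-fold in untreated kidneys at 24 h (1.08 ± 0.35, adjusted p = 0.0454). In CO kidneys at 24 h it was higher by 0.92 ± 0.35 (adjusted p = 0.097) and did not pass. The untreated call was close to the threshold and held when 4 of 18 arrays were left out in turn. Its adjusted p was 0.00245 without the CO 4 h kidney of donor 2, and its size was 0.97 to 1.19 over all arrays left out. The 4 arrays were the CO 4 h kidneys of donors 2 and 4 and the untreated 4 h kidneys of donors 1 and 3. Leaving out any other array ended the call.

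ENO1, which encodes the broadly expressed enolase of glycolysis, read 10.46, 10.50, 10.39 and 10.37 in CO kidneys of donors 5 to 8 at 24 h and 10.59, 10.27, 10.20 and 10.74 in their untreated kidneys. At 4 h it read 9.78, 10.43, 9.72 and 9.55 in CO kidneys and 9.39, 9.86, 10.05 and 9.77 in untreated kidneys of donors 1 to 4, and 9.29 and 9.61 in naive kidneys. All 24 h kidneys stood above the naive kidneys, as did 18.7% of all probe sets with CO and 19.8% untreated. The 4 h groups overlapped the naive kidneys. The rise at 24 h was 1.97-fold in CO kidneys (0.98 ± 0.23, adjusted p = 0.0121) and close to 2-fold in untreated kidneys (1.00 ± 0.23, adjusted p = 0.00858). Without naive kidney 1 both calls ended (adjusted p = 0.176 with CO and 0.138 untreated), and without naive kidney 2 the CO call ended (adjusted p = 0.0522).

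LDHA, the lactate dehydrogenase subunit that favours lactate formation, had the smallest adjusted p of the 8 genes at 24 h in both groups. At 24 h it read 9.14, 8.81, 8.70 and 9.56 in CO kidneys of donors 5 to 8 and 9.05, 9.31, 8.87 and 10.42 in their untreated kidneys. At 4 h it read 7.40, 8.62, 7.63 and 7.34 in CO kidneys of donors 1 to 4 and 7.03, 8.46, 8.04 and 8.11 in their untreated kidneys, with 6.87 and 6.72 in naive kidneys. Each 24 h kidney was above each 4 h kidney, and each 4 h kidney was above both naive kidneys. Of all probe sets, 11.2% with CO and 7.11% untreated lay wholly higher at 24 h than at 4 h. The shares wholly above naive with CO and untreated were 18.7% and 19.8% at 24 h, and 17.6% and 11.5% at 4 h. LDHA rose 4.79-fold with CO (2.26 ± 0.44, adjusted p = 0.00471) and 6.13-fold untreated at 24 h (2.62 ± 0.44, adjusted p = 0.00139). The 4 h differences of 0.95 ± 0.44 with CO (adjusted p = 0.171) and 1.11 ± 0.44 untreated (adjusted p = 0.165) did not pass, and the untreated one passed without donor 1 (adjusted p = 0.0352). The untreated 24 h call held when each of the 18 arrays was left out in turn, and the CO 24 h call ended without naive kidney 1 (adjusted p = 0.0565) or 2 (adjusted p = 0.0557).

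SLC16A3 encodes MCT4, a transporter that exports lactate from glycolytic cells and is a HIF target in human cells, and its 4 differences from naive were all negative. At 24 h it read 4.05, 4.73, 4.24 and 4.45 in CO kidneys of donors 5 to 8 and 4.53, 3.81, 4.13 and 5.70 in their untreated kidneys. At 4 h it read 2.85, 2.82, 4.41 and 4.83 in CO kidneys of donors 1 to 4 and 3.62, 4.46, 4.4 and 5.13 in their untreated kidneys, and the naive kidneys read 4.95 and 6.37. Both CO groups lay below the naive kidneys, as did 20% of all probe sets at 4 h and 20.4% at 24 h, and the naive kidneys were far apart. It was 3.83-fold lower in CO kidneys at 4 h (-1.94 ± 0.60, adjusted p = 0.0434). The other differences, -1.29 ± 0.60 in CO 24 h, -1.12 ± 0.60 in untreated 24 h and -1.26 ± 0.60 in untreated 4 h kidneys, had adjusted p of 0.185, 0.245 and 0.247. The CO 4 h call held when 8 of 18 arrays were left out in turn, with an adjusted p as low as 0.0174. Its size was -2.64 to -1.23 over all arrays left out. It ended without naive kidney 1 (0.0798) or 2 (0.408), CO 4 h donors 1 (0.117) or 2 (0.0852), the untreated 24 h kidneys of donors 5 (0.0539) or 7, or any CO 24 h kidney.

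VEGFA, the vessel growth factor that tubule cells and podocytes make and a target of HIF, was not called higher than naive by any of its 4 probe sets. The brightest probe set read 6.54, 7.19, 7.16 and 7.97 in CO kidneys of donors 5 to 8 at 24 h and 7.43, 7.12, 7.04 and 8.15 in their untreated kidneys. It read 7.96, 6.68, 7.57 and 7.76 in CO kidneys of donors 1 to 4 at 4 h, 8.23, 7.23, 7.53 and 7.46 in their untreated kidneys, and 7.98 and 7.70 in naive kidneys. Every transplanted group overlapped the naive kidneys, and the differences ran from -0.63 ± 0.40 in CO 24 h to -0.23 ± 0.40 in untreated 4 h kidneys, with adjusted p from 0.364 to 0.817.

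The second VEGFA probe set fell at 24 h. It read 6.69, 6.21, 6.39 and 6.91 in CO kidneys and 6.23, 6.73, 6.65 and 6.73 in untreated kidneys of donors 5 to 8, against 7.69 and 7.21 in naive kidneys, with no overlap, as for 20.4% of all probe sets with CO and 19.2% untreated. The fall was 1.87-fold with CO (-0.90 ± 0.23, adjusted p = 0.0194) and 1.82-fold untreated (-0.87 ± 0.23, adjusted p = 0.0195). At 4 h it averaged 7.37 ± 0.12 in CO and 7.18 ± 0.34 in untreated kidneys, with differences from naive of -0.08 ± 0.23 and -0.27 ± 0.23. The third probe set averaged 4.21 ± 0.29 in CO and 4.56 ± 0.99 in untreated kidneys at 24 h, 5.77 ± 0.85 and 5.92 ± 0.28 at 4 h, and 5.49 ± 0.52 in naive kidneys, and it passed in no comparison with naive. The fourth had a mean under background and exceeded it on 1 of 18 arrays. At 24 h the 3 probe sets above background all had lower means than naive, with the third at -1.28 ± 0.53 in CO (adjusted p = 0.133) and -0.92 ± 0.53 in untreated kidneys (adjusted p = 0.279), and the second was the 1 that passed.

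ERO1A encodes an oxidase of the endoplasmic reticulum (ER) that helps to form disulfide bonds and is induced by low oxygen. It read 4.14, 3.85, 3.63 and 3.88 in CO kidneys of donors 5 to 8 at 24 h and 3.81, 4.30, 3.82 and 6.41 in their untreated kidneys. At 4 h the values were 4.32, 3.91, 4.69 and 4.50 in CO kidneys and 3.38, 4.42, 4.31 and 4.84 in untreated kidneys of donors 1 to 4, and naive kidneys read 3.91 and 3.29. One kidney, untreated donor 8, stood far above all others, and no comparison passed. The difference from naive was 0.28 ± 0.55 in CO and 0.99 ± 0.55 in untreated kidneys at 24 h (adjusted p = 0.811 and 0.263), and 0.76 ± 0.55 in CO and 0.64 ± 0.55 in untreated kidneys at 4 h (adjusted p = 0.41 and 0.567).

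**Figure D3:**
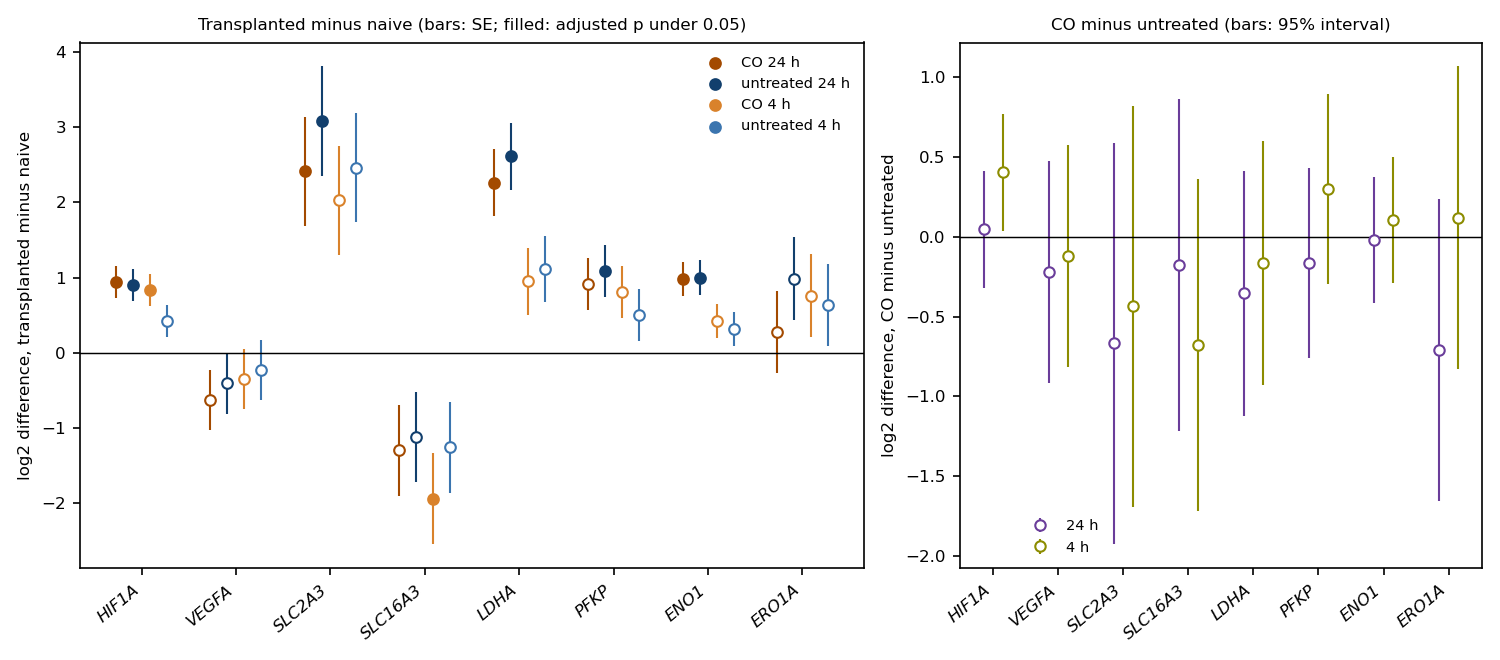
Left, log2 difference from naive kidneys (y axis) of each gene (x axis) in CO 24 h, untreated 24 h, CO 4 h and untreated 4 h kidneys, with SE bars and filled points where the adjusted p is under 0.05. Right, log2 difference of CO minus untreated kidneys at 24 h and 4 h with the 95% interval; HIF1A at 4 h is the one interval that lies on 1 side of 0.

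Arrays carry a number in their file names that reads as a date, with 4 dates, whose meaning is not stated, and these line up with the times. Most 24 h arrays have dates that no naive array has. The 2 groups share a date only for naive kidney 2 and the untreated 24 h kidney of donor 5, which differed, 24 h minus naive, by 1.01 for HIF1A, 1.69 for SLC2A3, 2.32 for LDHA, 1.13 for PFKP and 0.98 for ENO1. With date as a fixed block, 0 of 8 genes passed in either 24 h comparison with naive, and 0 and 159 probe sets of all 23999 did so for CO and untreated kidneys, where 2804 and 3494 passed without it. HIF1A then differed from naive by 1.15 in CO and 1.01 in untreated kidneys and ENO1 by 0.94 and 0.93, close to the differences without the block. The differences of LDHA were 1.51 and 1.91 and that of PFKP in untreated kidneys was 0.89. SLC2A3 had smaller ones, 0.65 in CO and 1.82 in untreated kidneys, against 2.41 and 3.08 without the block. The CO 24 h kidney of donor 6 is alone on its date and drops out of that fit. The untreated kidney of donor 5 is the only 24 h kidney on a date of naive or 4 h kidneys. The 24 h differences of that fit therefore rest on its level. The CO ones are set from it by the CO minus untreated difference on the date both 24 h groups share. They are no separate estimate from the pair above, and the calls lost there do not separate date from time. At 4 h, where dates are shared, HIF1A in CO kidneys still passed (0.84, adjusted p = 0.0371) and SLC16A3 did not (adjusted p = 0.0717), with a difference of -1.96, against -1.94 without the block. Date and time after transplantation can be told apart only in part. The level of the spike-in control BioB lined up with time as well. It was 4.75 to 5.82 on the 24 h arrays but untreated donor 8, and 6.11 to 6.73 on the 4 h and naive arrays. The part of this difference in the 24 h comparisons was not tested.

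The comparison of CO with untreated kidneys asked whether CO changed these levels. At 24 h 0 of 8 genes passed, as did 0% of all probe sets, and 281 probe sets (1.17%) and none of the 8 genes had an unadjusted p under 0.05. At 4 h 0 of 8 passed, again with 0% of all probe sets, and 787 probe sets (3.28%) and 1 of the 8 genes had an unadjusted p under 0.05. Over both times and for the difference between times, 0 of 8 genes and 0% of probe sets passed, with 378 (1.58%) and 612 (2.55%) probe sets and 0 of the 8 genes at an unadjusted p under 0.05. With the donor as a fixed replicate block, 0 of 8 passed in each of these 4 comparisons. HIF1A at 4 h had the smallest unadjusted p of the 8 genes (0.033), with a CO minus untreated difference of 0.40 ± 0.17, a 95% interval of 0.04 to 0.77 and an adjusted p of 0.999. It was higher with CO in 4 of 4 donors at 4 h, by 0.03 to 0.82, as were 5.71% of all probe sets. Within the file-name dates that both 4 h groups share, the HIF1A difference was 0.27 (3 kidneys each) and 0.82 (1 each).

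At 24 h SLC2A3 was lower with CO in 4 of 4 donors, by differences of -1.76 to -0.10, as were 4.29% of all probe sets. Its fitted difference was -0.67 ± 0.59, with a 95% interval of -1.93 to 0.59, and it was -1.18 within the 1 date that both 24 h groups share (CO donors 5, 7 and 8, untreated donors 6, 7 and 8). Without the untreated kidney of donor 8 the fitted difference was -0.21. For LDHA at 24 h the CO minus untreated difference was -0.36 ± 0.36 (interval -1.12 to 0.41), and for ENO1 it was -0.02 ± 0.19 (interval -0.42 to 0.38). Without the untreated kidney of donor 8 the LDHA difference was -0.02, and that of ERO1A was -0.10, against -0.71 with it. The intervals for ERO1A (-1.66 to 0.24) and SLC16A3 (-1.22 to 0.87) at 24 h include differences of more than 1 on the log2 scale. At 4 h LDHA differed by -0.16 ± 0.36 (interval -0.93 to 0.60) and SLC16A3 by -0.68 ± 0.49 (interval -1.72 to 0.36).

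The 24 h kidneys were also set against the 4 h kidneys of other donors. In CO kidneys LDHA was 2.48-fold higher at 24 h (1.31 ± 0.36, adjusted p = 0.0204), 1 of 8 genes, where 17.6% of all probe sets passed, 10.2% upward and 7.44% downward. In untreated kidneys LDHA was 2.83-fold higher (1.5 ± 0.36, adjusted p = 0.015) and ENO1 1.6-fold higher (0.68 ± 0.19, adjusted p = 0.0299), 2 of 8 genes, where 9.72% of all probe sets passed, 5.15% upward and 4.57% downward. At an unadjusted p under 0.05, 2 of 8 genes passed with CO (31.1% of all probe sets) and 3 of 8 untreated (23.2%). The times did not overlap for LDHA with CO, with 11.2% of all probe sets higher in this way, and for LDHA, PFKP and ENO1 untreated, with 7.11%. ENO1 in CO kidneys was higher by 0.56 ± 0.19, and narrowly missed the threshold (adjusted p = 0.0506). The LDHA call in CO kidneys ended without the CO 4 h kidney of donor 1, 3 or 4 or the CO 24 h kidney of donor 8 (adjusted p = 0.0648, 0.0511, 0.0612 and 0.0559), and the untreated ENO1 call ended without untreated donor 1, 4, 5 or 8 (0.0702, 0.0653, 0.083 and 0.0682).

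HIF1A, SLC2A3 and PFKP were not called between the times in either arm. VEGFA probe set 2 was 1.77-fold lower at 24 h than at 4 h in CO kidneys (-0.82 ± 0.19, adjusted p = 0.00751) and probe set 3 was 2.94-fold lower (-1.56 ± 0.43, adjusted p = 0.0203). In untreated kidneys these probe sets differed by -0.60 ± 0.19 and -1.36 ± 0.43 (adjusted p = 0.0582 and 0.0567). With date as a fixed block, 0 of 8 genes and 0 of all probe sets passed in both time comparisons. LDHA was then higher at 24 h by 0.39 with CO and 0.63 untreated, against 1.31 and 1.5 without the block, and untreated ENO1 by 0.51, against 0.68. On the 1 date that untreated kidneys of both times share (1 kidney each), LDHA was higher at 24 h by 0.58 and ENO1 by 0.72. The differences with the block rest on the 24 h kidney of this pair, the only one on a date of 4 h kidneys. Those with CO are set from it by the CO minus untreated difference on the date both 24 h groups share. The pair and the block are therefore no separate estimates, and the calls lost with the block do not separate date from time.

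The untreated 24 h kidney of donor 8 was singled out after its values were seen. Its array read highest of 18 for 4 of the 8 genes, SLC2A3, LDHA, ENO1 and ERO1A, by 0.99, 0.86, 0.15 and 1.57 over the next array, and ranked 10 of 18 for HIF1A by its brightest probe set. Genes that HIF is known to induce, taken from a list of 26 of which 18 were measured, were also high in it. ANKRD37, an ankyrin repeat protein induced by HIF, read 4.50 in the CO kidney and 7.27 in the untreated kidney of donor 8, while the other 16 arrays lay between 2.77 and 4.23. EPO, the red cell hormone that kidney interstitial cells make in low oxygen, read 3.25 in the CO kidney and 4.80 in the untreated kidney of donor 8, while the other 16 arrays lay between 1.04 and 1.5, under background. The kidneys of donor 8 are the ones in which EPO was above background.

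More of the genes of both lists had their highest level in that array. It was highest of 18 for 6 of 18 measured HIF targets outside glycolysis (33.3%) and 10 of 18 measured genes of glucose uptake and glycolysis (55.6%), beside 13.1% of all probe sets. It exceeded every other array by at least 1 for 3 of the 18 HIF targets (16.7%), ANKRD37, EPO and ERO1A, and for 1 of the 18 glycolysis genes (5.56%), ENO2, beside 58 of 23999 probe sets (0.242%). These lists hold members whose levels led to the choice of the array. Without all members that array was highest of 18 for 5 of 16 HIF targets (31.2%) and 8 of 15 glycolysis genes (53.3%). It exceeded the others by at least 1 for 2 of 16 (12.5%) and 1 of 15 (6.67%). The lists were chosen with results of these data known, so these counts are no test of the array. Listed genes were read by their brightest probe set, while the shares of all probe sets include dim ones. ADM, the vessel-relaxing peptide adrenomedullin, read 6.75 in the CO kidney and 8.42 in the untreated kidney of donor 8, with 5.63 to 8.01 elsewhere. SLC2A1, the basal glucose transporter, read 6.94 in the CO kidney and 8.21 in the untreated kidney, with 6.34 to 7.62 elsewhere. ENO2, the neuronal enolase and a HIF target, read 2.54 and 3.92 in that order, with 2.00 to 2.74 elsewhere. PGK1, a glycolytic enzyme, read 9.66 in the CO kidney and 10.10 in the untreated kidney, with 9.10 to 9.84 elsewhere.

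Not every listed gene followed. In the untreated kidney of donor 8 the carbonic anhydrase CA12 and the transferrin receptor TFRC lay within the range of the other arrays, and PKM, a pyruvate kinase, lay under their median. The array also differed in general measures: 84.8% of its probe sets were above background, where the other 17 had 78.9% to 81.5%, and the spike-in control BioB read 7.18, where the other 24 h arrays read 4.75 to 5.82 and the 4 h and naive arrays 6.11 to 6.73. Its tag control percentile of 1.42 and its array median of 3.81 lay within the range of the others. Their part in these levels was not tested. Without this array the untreated 24 h calls of HIF1A, SLC2A3, LDHA and ENO1 against naive held (adjusted p = 0.0104, 0.0194, 0.00217 and 0.0164), that of PFKP ended (adjusted p = 0.0537), and the ENO1 call between times in untreated kidneys ended (adjusted p = 0.0682).

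**Figure D4:**
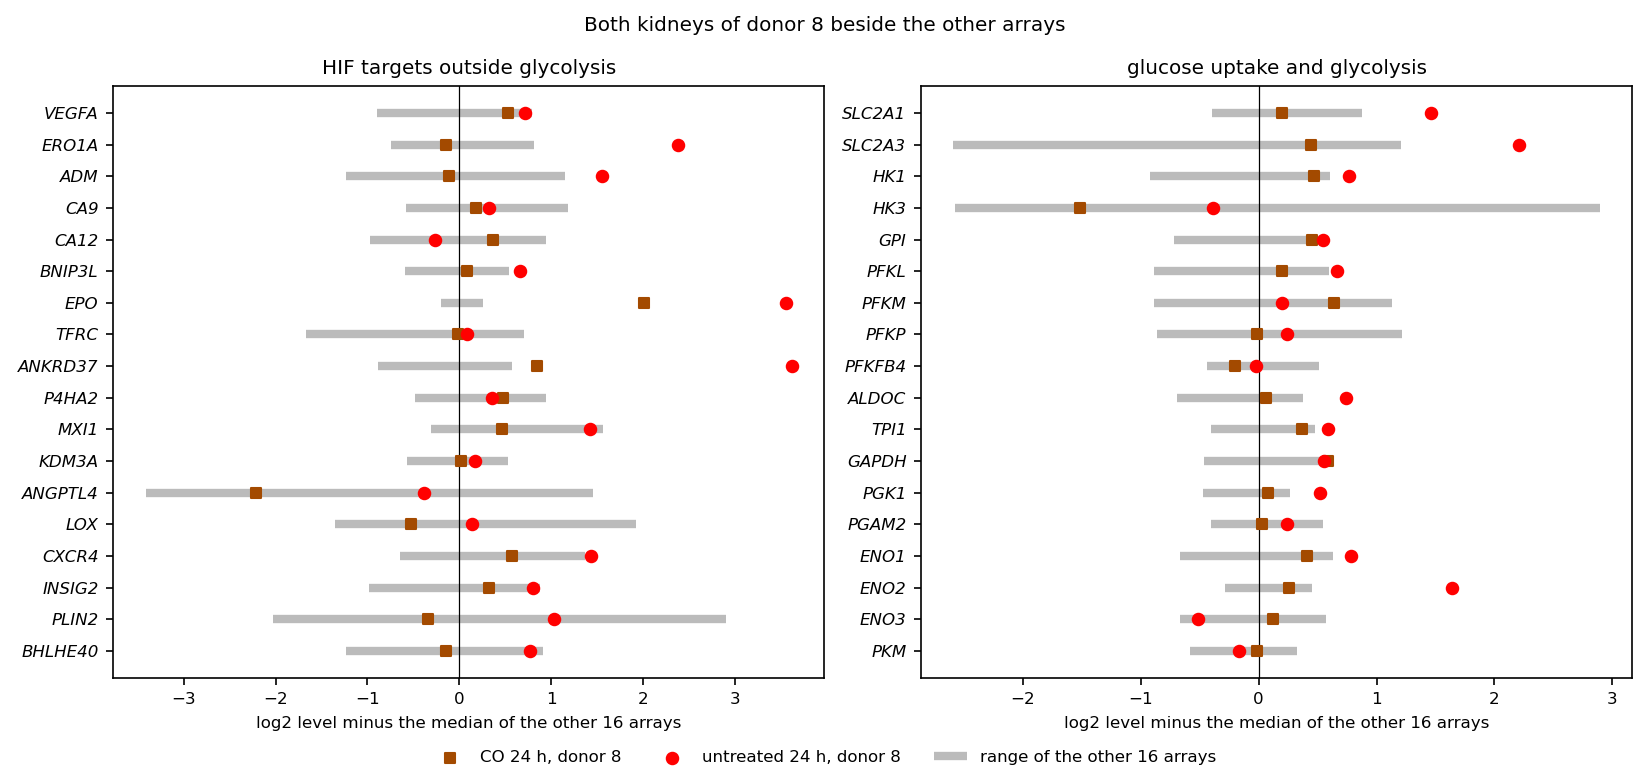
Log2 level minus the median of the 16 arrays of all other kidneys (x axis) for 18 measured HIF targets outside glycolysis (left) and 18 measured genes of glucose uptake and glycolysis (right). Squares are the CO 24 h kidney of donor 8, red circles its untreated 24 h kidney, and grey bars the range of the other 16 arrays. ANKRD37, EPO, ERO1A and ENO2 of the untreated kidney lie furthest outside the bars.

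Other genes of the same pathways came from lists that were chosen with results of these data known, and each is given by counts and median. The lists hold the members too, and the medians over all probe sets are those given above. At 24 h 5.75% of all probe sets passed upward and 5.93% downward against naive with CO, and 6.79% and 7.77% untreated. At 4 h 6.84% passed upward and 6.72% downward with CO, and 0.942% and 0.563% untreated. At an unadjusted p under 0.05 the shares were 25.9%, 28.1%, 28.4% and 20.7% in the same order. Listed genes were read by their brightest probe set, while these shares include dim ones. Of HIF regulators, 10 of 19 were measured. At 24 h HIF1A was the 1 that rose. CITED2, which competes with HIF for a coactivator, was the 1 that fell, with differences of -0.62 ± 0.19 in CO kidneys (adjusted p = 0.041) and -0.72 ± 0.19 in untreated kidneys (adjusted p = 0.0161). Without the untreated 24 h kidney of donor 8, 2 rose and 1 fell in untreated kidneys. The medians of this list were -0.13 in CO and -0.04 in untreated kidneys at 24 h. At 4 h HIF1A alone passed in CO kidneys, and 0 of 10 passed in untreated kidneys, with 3 at an unadjusted p under 0.05.

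Of HIF targets outside glycolysis, 0 of 18 measured genes passed against naive in CO or untreated kidneys at 24 h. At an unadjusted p under 0.05, 3 and 1 passed, where 25.9% and 28.1% of all probe sets did. The medians of these 18 genes were -0.41 and -0.23, beside -0.02 and 0.01 over all probe sets. Without the untreated 24 h kidney of donor 8, 1 of 18 was lower in each. In CO kidneys at 4 h PLIN2, the coat protein of lipid droplets, rose (2.98 ± 0.74, adjusted p = 0.0177) and CA12 fell (-1.26 ± 0.30, adjusted p = 0.0145), while 0 of 18 passed in untreated kidneys, with 2 at an unadjusted p under 0.05. Between the times, ANGPTL4, a lipase inhibitor, was lower at 24 h in CO kidneys (-2.60 ± 0.69, adjusted p = 0.0164) and in untreated kidneys (-2.69 ± 0.69, adjusted p = 0.0211). PLIN2 was lower at 24 h in CO kidneys (-2.48 ± 0.61, adjusted p = 0.0107), and LOX, a collagen crosslinking enzyme, in untreated kidneys (-1.63 ± 0.43, adjusted p = 0.0251).

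Of 26 genes of glucose uptake and glycolysis, 18 were measured. At 24 h 3 rose and 0 fell in CO kidneys (SLC2A3, ENO1 and GAPDH, the last by 0.48 ± 0.15, adjusted p = 0.0487), with a median of 0.24. In untreated kidneys 4 rose and 1 fell, with a median of 0.36. HK3, a hexokinase found mainly in white blood cells, had the largest rise (3.46 ± 0.94, adjusted p = 0.0204), and PFKM, the muscle form of phosphofructokinase, fell (-1.09 ± 0.34, adjusted p = 0.0436) while PFKP rose. The liver form PFKL was higher at 24 h than at 4 h in CO (0.72 ± 0.19, adjusted p = 0.0147) and untreated kidneys (0.85 ± 0.19, adjusted p = 0.00928), as were GAPDH (0.74 ± 0.12 and 0.54 ± 0.12) and GPI (0.74 ± 0.14 and 0.52 ± 0.14). PFKL against naive was not called (0.20 ± 0.23 in CO and 0.36 ± 0.23 in untreated kidneys at 24 h), nor was PFKM in CO kidneys at 24 h (-0.77 ± 0.34, adjusted p = 0.169). Of lactate genes, 5 of 8 were measured, and besides LDHA at 24 h and SLC16A3 at 4 h with CO none passed. LDHB, the subunit that favours pyruvate formation, differed at 24 h by -0.34 in CO and -0.45 in untreated kidneys without passing.

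**Figure D5:**
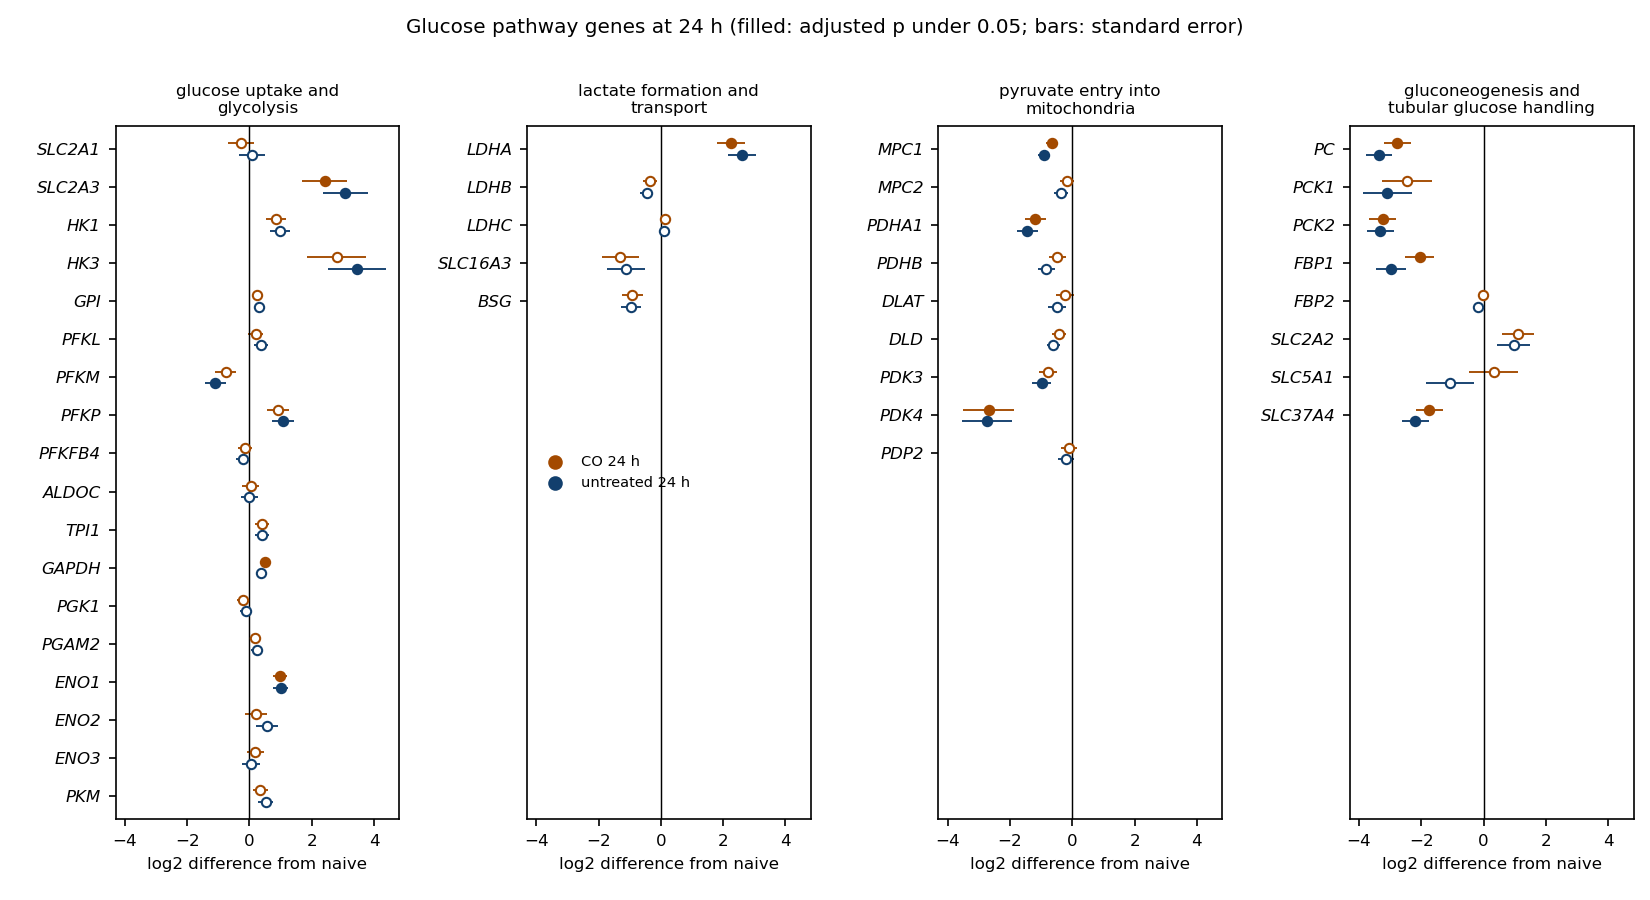
Log2 difference from naive kidneys (x axis) at 24 h, CO and untreated, for each measured gene (y axis) of 4 lists, glucose uptake and glycolysis, lactate formation and transport, pyruvate entry into mitochondria, and gluconeogenesis with tubular glucose handling. Bars are SE and filled points have an adjusted p under 0.05; filled points lie right of 0 for SLC2A3, LDHA and ENO1 and left of 0 for PC, PCK2, FBP1, SLC37A4, PDK4, PDHA1 and MPC1 in both groups.

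Genes of glucose formation fell at 24 h. Of 8 measured genes of gluconeogenesis and tubular glucose handling, 0 rose and 4 fell in CO kidneys. In untreated kidneys 0 rose and 5 fell, and the medians were -1.90 with CO and -2.59 untreated. Of all probe sets, 5.93% fell with CO and 7.77% untreated. PCK2, the mitochondrial phosphoenolpyruvate carboxykinase, fell in CO (-3.24 ± 0.43, adjusted p = 0.000482) and untreated kidneys (-3.31 ± 0.43, adjusted p = 0.000238). PC, pyruvate carboxylase, fell by 2.77 with CO (adjusted p = 0.00137) and by 3.36 untreated (adjusted p = 0.000228), and FBP1, a phosphatase of the pathway, fell by 2.06 with CO (adjusted p = 0.0115) and by 2.98 untreated (adjusted p = 0.000992). At 4 h 0 of 8 passed in either group, with 0 at an unadjusted p under 0.05, beside 28.4% of all probe sets with CO and 20.7% untreated. In the fit with date as a fixed block, the 24 h differences rest on the untreated kidney of donor 5, as above. With date as a fixed block 0 fell in CO kidneys and 4 in untreated kidneys at 24 h. In that fit 1 HIF regulator was lower in untreated kidneys at 24 h, 0 genes of the other pathway lists were called there, and 0 genes of any pathway list were called in CO kidneys at 24 h.

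Of 9 measured genes that control the entry of pyruvate into mitochondria, 0 rose and 3 fell in CO kidneys at 24 h, and 0 rose and 4 fell in untreated kidneys, with medians of -0.48 and -0.84. PDK4, a kinase that shuts pyruvate dehydrogenase, fell by 2.69 with CO (adjusted p = 0.0403) and by 2.74 untreated (adjusted p = 0.0319). PDHA1, a catalytic subunit of pyruvate dehydrogenase, fell by 1.19 with CO (adjusted p = 0.0294) and by 1.45 untreated (adjusted p = 0.00898). MPC1, a subunit of the mitochondrial pyruvate carrier, fell by 0.66 and 0.91 in that order (adjusted p = 0.034 and 0.00503). At 4 h 5 of 9 fell in CO kidneys, where 6.72% of all probe sets fell. PDK3 (-1.35 ± 0.29, adjusted p = 0.0106) and PDHB (-0.99 ± 0.28, adjusted p = 0.0276) were among them. In untreated kidneys 0 of 9 passed at 4 h, with 5 at an unadjusted p under 0.05, beside 20.7% of all probe sets. With date as a fixed block 4 of 9 fell in CO kidneys at 4 h.

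Around ERO1A, 10 of 14 genes of oxidative folding in the ER were measured. HSPA5, PDIA4, PDIA6 and PDIA3 rose at 24 h in both groups, with HSPA5, the main ER chaperone, at 1.38 ± 0.36 in CO (adjusted p = 0.0202) and 1.41 ± 0.36 in untreated kidneys (adjusted p = 0.0146), and list medians of 0.73 and 0.88. At 4 h HSPA5 (1.90 ± 0.36, adjusted p = 0.00646), HSP90B1 and PDIA6 rose in CO kidneys. ERO1A itself was not among those that passed. Of the VEGF family, 5 of 10 genes were measured, and VEGFB fell at 24 h by 0.82 with CO (adjusted p = 0.00539) and by 0.87 untreated (adjusted p = 0.00286), and by 0.69 with CO at 4 h (adjusted p = 0.0152). Between CO and untreated kidneys 0 genes of any of these lists passed at either time.

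Cell type markers differed between the groups too, some of them at 4 h already. The mean log2 level of 3 measured distal nephron markers of 8 was 8.44 to 8.55 in naive kidneys. At 24 h it was 6.09 to 7.74 in CO and 6.25 to 6.95 in untreated kidneys. At 4 h it was 6.84 to 6.93 in CO and 6.21 to 8.24 in untreated kidneys. Lists for podocytes, endothelium, stroma, red cells and platelets are not given here. The mean log2 level of 14 measured myeloid markers of 18 was 3.43 to 5.64 in CO and 4.00 to 5.75 in untreated kidneys at 24 h, 3.46 to 3.8 in CO and 3.63 to 5.38 in untreated kidneys at 4 h, and 2.63 to 3.26 in naive kidneys. Summed on the linear scale and put back on the log2 scale, they were 7.83 to 10.68, 8.56 to 10.98, 7.71 to 8.10, 8.26 to 10.10 and 6.86 to 7.67 in the same order. At 24 h 4 of the 14 rose in CO and 8 in untreated kidneys, where 5.75% and 6.79% of all probe sets rose. The mean of 8 measured lymphocyte markers of 10 was 2.75 to 5.03 in CO and 2.82 to 5.49 in untreated kidneys at 24 h, 2.39 to 3.39 in CO and 2.82 to 3.82 in untreated kidneys at 4 h, and 2.38 to 3.17 in naive kidneys, and 0 of the 8 rose in CO and 2 in untreated kidneys at 24 h. The mean of 7 measured proximal tubule markers of 10 was 6.25 to 7.55 in CO and 5.31 to 6.62 in untreated kidneys at 24 h, 7.22 to 8.86 in CO and 8.42 to 9.12 in untreated kidneys at 4 h, and 9.49 to 9.54 in naive kidneys. At 24 h 6 of the 7 fell in each group, where 5.93% of all probe sets fell with CO and 7.77% untreated. Their part in the rises of SLC2A3, LDHA, HK3, PFKP and ENO1 and in the falls of glucose formation genes was not tested. Both kidneys of donor 8 had the lowest myeloid mean of their group, 3.43 with CO and 4.00 untreated. How this relates to the levels of SLC2A3, LDHA and ENO1 in the untreated kidney was not tested.

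Profiles like those of the 4 members of widest span over the groups were searched among 6300 genes with 1 symbol, by the root mean square difference of centred log2 levels over 18 arrays, a description with no test. SLC2A3 was nearest to RGS4, MCUB and TNFRSF1B, at 0.65, 0.68 and 0.70, where its own root mean square spread was 1.17. LDHA was nearest to ITGB3, NANS and NUCB2, at 0.45, 0.48 and 0.50, with a spread of its own of 0.99. SLC16A3 was nearest to TRPT1, SLC2A5 and MTTP, at 0.59, 0.59 and 0.61, with its own at 0.84. PFKP was nearest to SLC35C1, PLSCR3 and MFSD5, at 0.19, 0.22 and 0.22, with its own at 0.49. For ERO1A, added after its values were seen, HILPDA, a HIF-induced lipid droplet protein, was nearest at 0.38, and CACUL1 and SLC2A1 followed at 0.42 and 0.43, with its own spread at 0.68. All 18 points are shared between genes, among them the untreated 24 h array of donor 8.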

How the data were processed

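Each of 18 pig kidneys was measured on its own Affymetrix pig array. The deposited values are log2 levels per probe set that the authors made with RMA, per the submitters' processing notes, and version and settings are not given in the sources used here. Values ran from 0.226 to 13.46 with none missing. Depth does not apply to arrays, so their number limits the precision. Groups came from titles and source names; the treatment field of CO arrays reads air, and the titles were followed. Of 24123 probe sets, 124 controls were left out. The platform annotation gave 10069 of the rest 1 symbol, 198 several and 13732 none, and 9961 matched a pig RefSeq gene by identifier.

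Differences and their errors came from limma 3.58.1 under R 4.3.3 (functions lmFit, eBayes; all 18 arrays, no block, two-sided, no filter), checked on simulated data. Donor numbers in the labels pair CO and untreated kidneys. After group means were removed, same-donor correlations were -0.20 to 0.57, and the partner was the best match in 6 of 8 donors. The members, lists and the rule for named genes (all member probe sets, up to 4 called genes per list and comparison, and 3 nearest profiles of the 4 widest members) were chosen with earlier results of these data known. Alternatives were variance model, filter on dim probe sets, normalisation, array weights, date and donor blocks (statmod 1.5.0), fewer groups, other probe sets and arrays left out. Sequences were not analysed here. Figures used matplotlib 3.10.9 in Python 3.11.15.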

Additional observations from a re-analysis of the deposited data

Results flagged for a closer look

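Of 56 groups of 4 kidneys examined over the 14 probe sets, 2 had 1 array far from the other 3 by Dixon's test, where chance gives about 1 in 20 groups. For VEGFA probe set 2, the untreated 24 h kidney of donor 5 read 6.23, below the other 3 untreated 24 h kidneys, which lay between 6.65 and 6.73. For VEGFA probe set 4, whose mean is under background, the CO 4 h kidney of donor 2 read 0.767, below the other 3 at 1.26 to 1.34. The ERO1A value of the untreated 24 h kidney of donor 8 was not among those 2. In 0 of the 14 probe sets did all donors move one way with CO at 1 time and the opposite way at the other time.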

How the results depend on the processing

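For the 8 genes in 10 comparisons, 0 of 2192 values under an alternative changed the sign of a called difference, 74 lost a call and 27 gained one. With array weights the number of genes called was 2 in untreated 4 h against naive and 5 in CO 4 h against naive, against 0 and 2 as fitted, and at 24 h SLC16A3 was called lower in CO (adjusted p = 0.0485) and untreated kidneys (0.0173) and PFKP higher in CO kidneys (0.00743). With quantile normalisation it was 1 in CO 4 h, as it was with file-name date as a fixed block and with HIF1A read by probe set 3 or 4. That date block gave 0 in CO 24 h and in untreated 24 h against naive and 0 in both time comparisons, and only the groups compared gave 0 in 24 h against 4 h untreated; the cause was not tested. In 24 h against 4 h with CO the count was 2 with an intensity trend and robust prior, with the dim filter, with quantile normalisation, with array weights, with date as a random block, and with VEGFA read by probe set 2 or 3. Leaving out each array in turn gave 0 to 5 in CO 24 h, 1 to 5 in untreated 24 h, 0 to 3 in CO 4 h and 0 to 2 in untreated 4 h against naive, 0 to 2 in 24 h against 4 h with CO and 1 to 3 untreated. With 1 naive array left, the lone array is assumed to vary like the other groups. CO against untreated gave 0 in all of these.

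The donor as a random replicate block changed no count of genes: it gave 4, 5, 2 and 0 against naive in CO 24 h, untreated 24 h, CO 4 h and untreated 4 h, and 1 and 2 for the times with CO and untreated. As a fixed replicate block it gave 0 of 8 in each comparison of CO with untreated kidneys. The small naive group and the dates that follow the times are the main limits. With date as a fixed block, all differences of 24 h kidneys from naive or 4 h kidneys rest on the untreated kidney of donor 5.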
